A study of Mus musculus with 10 samples.

Results

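Thyrotropin-releasing hormone (TRH) is a small peptide cut from a larger precursor, the product of Trh, and the 7 genes followed here encode that precursor and the enzymes that make and break the peptide. They are Trh, the convertase genes Pcsk1 and Pcsk2, the carboxypeptidase gene Cpe, the glutaminyl cyclase gene Qpct, the amidating enzyme gene Pam, and Trhde, which encodes the TRH-degrading ectoenzyme. All 7 were found by symbol among the 55385 genes of the deposited count table, and 4 of them (Trh, Cpe, Qpct and Pam) passed the filter on low counts that left 15064 genes for testing. Trh was selected on its own counts in this contrast, for being much lower in the samples labelled IL6 shRNA1, so its values are a description and carry no test. The other 6 were chosen for their roles in the pathway, with earlier results of these data known.

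The samples come from a mouse ovarian tumour cell line with mutations in both Arid1a and Pik3ca, written APV245 in the sample titles. In 5 samples the cells carried a lentiviral short hairpin RNA against the cytokine gene Il6 (IL6 shRNA1, genotype label IL6 knockdown), and in the other 5 a non-mammalian control hairpin in the pLKO.1-puro vector (genotype label WT). All 10 therefore share the line, its mutations and a hairpin vector, carry the treatment label "no treatment" and belong to batch 1. The labels of the samples speak of culture in DMEM with serum, and the study design of subcutaneous tumours. The sources used here do not give the host's strain, sex or age, the number of clones, or whether each sample is a tumour or a culture of its own, so p-values measure the spread between these samples, which may be technical.

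Totals ranged from 17905397 to 19934278 counts in the IL6 shRNA1 libraries and from 18224751 to 22682346 in the control libraries. Il6, the target of the hairpin, did not come out lower where the label says knockdown. Its level was 1.73 ± 0.406 CPM (counts scaled to a common library size) under IL6 shRNA1 and 1.26 ± 0.639 CPM in control (SD, n = 5 each), with a log2 fold change of 0.44 ± 0.36 (SE; edgeR quasi-likelihood test with Benjamini-Hochberg adjustment, adjusted p = 0.44). With the leukocyte score described below in the model it was -0.50 (adjusted p = 0.62), and leaving out 1 library gave 0.24 to 0.71. Because the target does not bear out the label, "IL6 shRNA1 library" below means a library so labelled, and each direction is drawn between labels. Of 25 leukocyte markers, 21 were tested, all 21 had a positive fold change and 9 were called higher (an adjusted p under 0.05), where 5.62% of all tested genes were called higher, and 0 were at 0 counts in all libraries. Their summed level was 3090 to 6210 CPM in the IL6 shRNA1 libraries and 1130 to 3210 CPM in control. Its largest part was Cd74, at means of 2238 against 858 CPM. Summed markers of muscle, fat, skin and blood ranged from 144 to 8810 CPM against 31.9 to 915 CPM. The 8810 CPM was IL6 shRNA1 library 5 alone, and the next highest of its group was library 2 at 1886 CPM. Endothelial markers summed to 255 to 541 CPM against 209 to 311 CPM. The 541 CPM was again IL6 shRNA1 library 5, and the next highest of its group was library 3 at 348.8 CPM. In these lists 9 and 10 genes were tested, all had a positive fold change and 0 were called. Fibroblast and pericyte genes summed to 38200 to 68700 against 37900 to 89000 CPM. Most of that sum came from the collagen genes Col1a1 (means 25840 against 27840 CPM) and Col1a2 (20870 against 27000 CPM). Which cells made the collagen was not tested. Of the 13 genes in this list, the matrix genes Lum and Dcn were lower (log2 fold changes -0.97 and -0.62, edgeR adjusted p = 0.0096 and 0.017). The smooth muscle myosin gene Myh11 was higher (1.01, adjusted p = 0.013). Of 12 epithelial and mesothelial markers, 10 were tested, and 8 had a positive and 2 a negative fold change. The 1 called higher was the mesothelial gene Upk3b at 120 against 58.9 CPM. The list summed to 361 to 384 against 154 to 367 CPM. Its other members included Krt8 at 71.0 against 53.0 CPM, Wt1 at 83.0 against 90.5 CPM, Epcam at 4.17 against 2.81 CPM and Pax8 with 5 and 2 counts per group. In such bulk samples, fewer cells of a type and less RNA per cell cannot be told apart.

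TRH is best known as the hypothalamic signal that makes the pituitary release thyrotropin, and it is also made outside the brain. Its precursor holds several copies of the peptide core, each set between pairs of basic residues. Prohormone convertases cut beside the basic residues, carboxypeptidase E trims them off, glutaminyl cyclase closes the leading glutamine into pyroglutamate, and the amidating enzyme turns the trailing glycine into an amide. Once released, the peptide is split by the TRH-degrading ectoenzyme, a membrane aminopeptidase.

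The repeated units are shown because they are what the processing enzymes act on. In the annotated Trh transcript of 1384 bases and 3 exons, read from the GENCODE annotation of GRCm38, the coding region of 256 codons holds 5 copies of the codons for glutamine, histidine, proline and glycine, all in exon 3. They are given 5′ to 3′ on the coding strand, with the 12 bases of the core in capitals and the neighbouring codon pairs in lower case.
Unit 1 (from codon 77, chr6:92243088-92243111, minus strand): aaacgcCAGCATCCGGGCaaaagg
Unit 2 (from codon 109, chr6:92242992-92243015, minus strand): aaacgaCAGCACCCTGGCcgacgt
Unit 3 (from codon 154, chr6:92242857-92242880, minus strand): aagcggCAGCACCCTGGCaggcga
Unit 4 (from codon 172, chr6:92242803-92242826, minus strand): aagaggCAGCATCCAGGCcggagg
Unit 5 (from codon 203, chr6:92242710-92242733, minus strand): aaacgtCAGCATCCTGGCaaaagg
All 5 units have a pair of codons for lysine or arginine on both sides. The 5 cores use 4 different base sequences, because units 2 and 3 share theirs.

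The promoter of Trh is shown because this gene carries the large difference. RefSeq promoter sequences of build GRCm38.p6 were at hand for 5 of the 7 genes. The 250 bases before the Trh start (chr6:92244651-92244900, minus strand) are given below 5′ to 3′, with a TATAA match and a TGACCT match in capitals.
Trh promoter: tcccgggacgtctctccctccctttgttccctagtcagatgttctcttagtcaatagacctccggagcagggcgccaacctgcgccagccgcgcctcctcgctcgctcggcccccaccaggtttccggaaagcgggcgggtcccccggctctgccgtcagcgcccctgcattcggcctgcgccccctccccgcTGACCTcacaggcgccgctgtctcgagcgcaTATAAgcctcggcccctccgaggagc
TATAA, the core of a TATA box, ends 22 bases before the start, and 22.8% of 32851 promoter stretches of the same length hold it on either strand. TGACCT, a motif that thyroid hormone receptors bind, lies 57 to 52 bases before the start, and 14% of promoters hold it. TGACG, the core of a cAMP response element, was found once on the opposite strand, 96 to 92 bases before the start (17.8% of promoters), and the SP1 motif GGGCGG once, 117 to 112 bases before it (32.7%). These 4 matches do not overlap. TTCNNNGAA, a palindrome that STAT factors bind, had 0 matches in this window, and 7.02% of promoters hold it. Other spacings of this palindrome were not searched, and the window holds TTCCGGAA, which has a shorter one. The E-box form CACNTG had 0 matches as well (39.5%). Other forms of the E-box were not searched, and the window holds CAGATG, which has a G in place of the inner C. The window has a GC content of 68.8%, against a median of 52.4% over all promoters.

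Trh (ENSMUSG00000005892.4, chr6:92242061-92244650, minus strand) was counted in every library and no other gene of the table overlaps it. The IL6 shRNA1 libraries 1 to 5 held 63, 20, 32, 16 and 27 counts, or 3.37, 0.988, 1.75, 0.779 and 1.43 CPM. Control libraries 1 to 5 held 523, 714, 627, 323 and 659 counts, or 22.2, 34.8, 26.9, 16.7 and 39.1 CPM. The groups did not overlap, and the lowest control library was 4.96 times the highest IL6 shRNA1 library. The means were 1.66 ± 1.03 CPM and 27.9 ± 9.10 CPM (SD, n = 5 each), a log2 fold change of -4.07 ± 0.40 (SE, 95% interval from -4.95 to -3.19), or 16.8 times lower in the IL6 shRNA1 libraries. Because this contrast picked the gene, that value supports nothing further.

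Among the IL6 shRNA1 libraries, library 1 had the highest Trh level, and among the controls libraries 5 and 2 had the highest. The coefficient of variation was 61.7% in the IL6 shRNA1 group and 32.6% in control. Library 1 also had the lowest leukocyte score of its group (mean log2 CPM of the markers, centred on each gene's mean), -0.15 against 0.57 to 0.86 in the other 4. In control, libraries 2 and 5 had scores of -1.50 and -0.56, while library 4, with the lowest Trh, had -0.62. With that score in the model the log2 fold change of Trh was -3.59, without the 3 libraries that stood farthest out on the first principal component (IL6 shRNA1 library 5, control libraries 2 and 5) it was -3.68, and without IL6 shRNA1 library 1 it was -4.48. Over all tested genes, 75 were called with the score in the model and 1775 without it. Apart from IL6 shRNA1 library 1, every IL6 shRNA1 library scored above every control. The shares of score and label in a lost call were not tested.

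**Figure D1:**
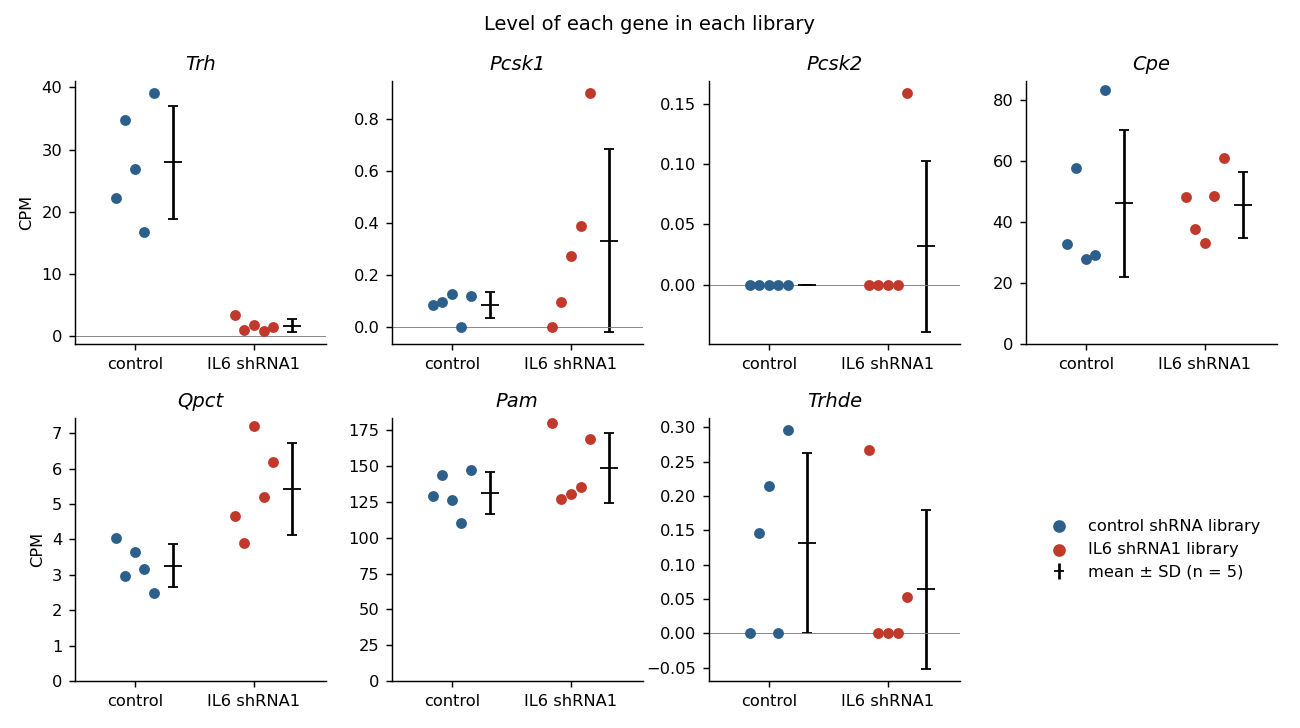
Level of each of the 7 genes in CPM (vertical axis, linear, its own scale in each panel) in the 5 control and 5 IL6 shRNA1 libraries. Points are libraries and black bars are mean ± SD, and Trh is the gene whose groups stand apart, at 16.7 to 39.1 CPM in control and 0.779 to 3.37 CPM with IL6 shRNA1.

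The convertases that are best known for cutting TRH precursor in endocrine cells were close to absent in both groups. Pcsk1, which encodes prohormone convertase 1 (chr13:75089826-75134861), had 0, 2, 5, 8 and 17 counts in IL6 shRNA1 libraries 1 to 5 and 2, 2, 3, 0 and 2 in control libraries 1 to 5. It lay under the filter on low counts, and 3 IL6 shRNA1 libraries were above every control library. The means of 0.332 ± 0.351 and 0.0860 ± 0.0511 CPM (SD, n = 5 each) gave p = 0.13 in an exact two-sided permutation test, whose smallest possible p is 0.0079. Without IL6 shRNA1 library 1 the test gave p = 0.024, and without library 5, which holds 17 of the group's 32 counts, the difference in means fell from 0.246 to 0.104 CPM (exact permutation p = 0.22).

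Pcsk2, which encodes prohormone convertase 2 (chr2:143546156-143816285), had 3 counts in IL6 shRNA1 library 5 and 0 in the other 9 libraries. A count of 0 allows up to 3 counts, which is 0.127 to 0.178 CPM per control library (counting error alone), so expression below that was not detectable at this depth. Trhde (chr10:114398821-114802307), the gene of the ectoenzyme that destroys TRH, had 5, 0, 0, 0 and 1 counts in IL6 shRNA1 libraries and 0, 3, 5, 0 and 5 in control libraries. Its means of 0.0640 and 0.132 CPM lay within the spread of the libraries (exact two-sided permutation p = 0.44). Both genes also lay under the filter. Each has 2 genes on the opposite strand in its span, with at most 1 count per library at Pcsk2 and 0 at Trhde.

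The trimming and finishing enzymes were expressed in all 10 libraries, and none was called lower with IL6 shRNA1. Cpe, the gene of carboxypeptidase E (chr8:64592542-64693054), was at 48.4, 37.7, 33.4, 48.5 and 61.1 CPM in IL6 shRNA1 libraries 1 to 5 and at 32.9, 57.7, 27.8, 29.3 and 83.3 CPM in control libraries 1 to 5. The 2 highest controls are libraries 2 and 5, the same that were highest for Trh, and the groups overlapped. The means were 45.8 ± 10.8 and 46.2 ± 24.0 CPM (SD, n = 5 each), and the log2 fold change was -0.01 ± 0.32 (SE; edgeR adjusted p = 0.99). Its 95% interval from -0.72 to 0.70 leaves room for changes between 0.608 and 1.62 times the control level. The sign of this near-zero value flips with the scaling: it was 0.01 with RLE factors and 0.02 with library totals. It was 0.32 without control library 5 (adjusted p = 0.47) and 0.49 without the 3 farthest libraries (adjusted p = 0.15).

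Pam encodes the peptidylglycine alpha-amidating enzyme, which finishes TRH and many other peptides (chr1:97795114-98095646). Its levels were 180, 127, 131, 135 and 169 CPM in IL6 shRNA1 libraries 1 to 5 and 129, 144, 126, 110 and 147 CPM in control libraries 1 to 5. IL6 shRNA1 libraries 1 and 5 were above all controls and the rest lay within their range. The log2 fold change was 0.18 ± 0.12 (SE, 95% interval -0.08 to 0.43; edgeR adjusted p = 0.33), so a rise of more than 1.35 times lies outside the interval. Pam lies on chromosome 1, whose 917 tested genes had a median log2 fold change of 0.32. The 5 genes that overlap Pam in the table had at most 59 counts in a library, against at least 2127 for Pam.

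Qpct, the gene of glutaminyl cyclase (chr17:79051906-79090378), was the 1 gene called of the 3 tested enzyme genes, against 11.8% of all 15064 genes called, 5.62% higher and 6.16% lower. It was at 4.65, 3.90, 7.21, 5.21 and 6.19 CPM in IL6 shRNA1 libraries 1 to 5 and at 4.03, 2.97, 3.65, 3.16 and 2.49 CPM in control libraries 1 to 5. The groups overlapped through 1 library each, since 4 of the 5 IL6 shRNA1 libraries were above every control. The means were 5.43 ± 1.30 and 3.26 ± 0.599 CPM (SD, n = 5 each), with a log2 fold change of 0.73 ± 0.20 (SE; edgeR adjusted p = 0.039). The values rest on 42 to 132 counts a library. Omitting 1 library at a time, the call was lost for IL6 shRNA1 libraries 3, 4 and 5 (adjusted p of 0.086, 0.065 and 0.085) and for control libraries 2, 3, 4 and 5 (0.087, 0.057, 0.067 and 0.089). It was also lost with the leukocyte score in the model (log2 fold change 0.45, adjusted p = 0.55) and without the 3 farthest libraries (0.53, adjusted p = 0.31).

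Levels can be set beside each other per gene length, in the deposited FPKM (counts per kilobase of gene model, scaled to the library's total). In control the order was Trh at 19.9 ± 5.57, Cpe at 17.3 ± 7.93, Pam at 11 ± 0.900 and Qpct at 1.29 ± 0.303 FPKM (SD, n = 5). Trh and Cpe did not differ beyond their spread, with ranges of 12.2 to 26.1 and 11.3 to 29.5 FPKM, and Cpe overlapped Pam (9.38 to 11.5 FPKM), whereas Trh and Pam did not overlap. With IL6 shRNA1 the order was Cpe at 17.5 ± 3.81, Pam at 12.4 ± 1.57, Qpct at 2.14 ± 0.531 and Trh at 1.18 ± 0.685 FPKM. There Qpct (1.56 to 2.90) and Trh (0.590 to 2.31) overlapped, as did Cpe (13.1 to 22.7) and Pam (10.8 to 14.4). Pcsk1, Trhde and Pcsk2 had means of at most 0.0592 FPKM in either group. In every IL6 shRNA1 library Trh stood below Cpe and Pam.

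**Figure D2:**
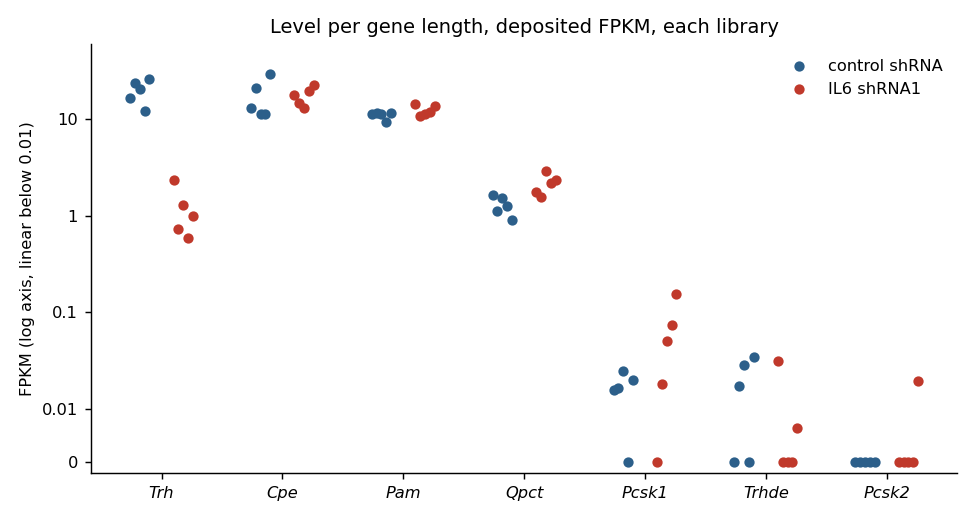
Deposited FPKM (vertical axis, logarithmic above 0.01 and linear below) of the 7 genes, with each point a library, blue for control and red for IL6 shRNA1. Trh is at 12.2 to 26.1 FPKM in control and at 0.590 to 2.31 FPKM with IL6 shRNA1, while the groups overlap for Cpe, Pam and Qpct and Pcsk1, Trhde and Pcsk2 lie below 0.2 FPKM.

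Other enzymes of peptide processing were measured from lists of the same pathway. Of 10 other proprotein convertases, their chaperones and cathepsin L, 8 were tested and 0 were called (median log2 fold change 0.01, against -0.01 over all genes). At an edgeR adjusted p of 0.06, Ctsl, the cathepsin L gene and the most abundant of them per length (40.4 against 33.1 FPKM), was at 261 against 215 CPM. Furin, the convertase of the general secretory pathway, was at 251 ± 15.3 against 249 ± 6.33 CPM (27.4 against 27.0 FPKM, adjusted p = 0.89). Thus Furin stood far above Pcsk1 and Pcsk2 per length in both groups. The helper genes of the endocrine convertases were near 0, with 2 and 5 counts per group for Pcsk1n and 18 and 19 for Scg5. At an unadjusted p under 0.05, 3 of the 8 passed in edgeR. DESeq2 called 1 and limma voom 0, and edgeR called 1 without IL6 shRNA1 library 1.

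Of 8 carboxypeptidases and the second glutaminyl cyclase, Qpctl, 7 were tested and 1 was called higher (median 0.23; 5.62% of all genes were higher). This was Cpd, the gene of carboxypeptidase D, which trims basic residues in the general secretory pathway, at 154 ± 27.5 and 116 ± 10.3 CPM (SD, n = 5; log2 fold change 0.41 ± 0.12 SE, edgeR adjusted p = 0.048). Its call was lost in 9 of the 10 omissions of a single library, all but that of IL6 shRNA1 library 3 (adjusted p = 0.053 to 0.11). With the leukocyte score the call was lost as well, while the log2 fold change stayed at 0.40 (edgeR adjusted p = 0.37). Qpctl was at 31.4 ± 2.47 against 33.4 ± 1.87 CPM (adjusted p = 0.43). The carboxypeptidase-like gene Cpxm1, the most abundant of the list per length, was at 109 against 80.4 CPM (adjusted p = 0.13).

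Of 19 peptide-degrading enzymes, among them the aminopeptidase relatives of the TRH-degrading enzyme, 18 were tested, 1 was lower and 1 higher (median 0.12), which is near the 11.8% called over all genes. Enpep, the gene of glutamyl aminopeptidase, was at 5.93, 6.67, 5.02, 4.87 and 10.4 CPM in IL6 shRNA1 libraries 1 to 5 and at 18.6, 26.3, 22.2, 17.7 and 43.7 CPM in control libraries 1 to 5. The groups did not overlap, which held for 10.9% of all genes tested, and the log2 fold change was -1.97 ± 0.29 (SE; edgeR adjusted p = 0.004). The call was kept in each omission of a single library and lost with the leukocyte score (-1.89, adjusted p = 0.11). Erap1, an aminopeptidase gene of the endoplasmic reticulum, was higher at 89.9 ± 13.2 against 51.4 ± 13.9 CPM (log2 fold change 0.81, edgeR adjusted p = 0.02). Its call was lost with the leukocyte score (0.36, adjusted p = 0.35) and without the 3 farthest libraries (0.555, adjusted p = 0.082). Anpep, the gene of aminopeptidase N and the most abundant of the list per length, was at 227 ± 34.6 against 353 ± 127 CPM (adjusted p = 0.089). Enzymes that cleave TRH inside cells, Prep (98.9 against 93.5 CPM, adjusted p = 0.43) and Pgpep1 (18.6 against 21.4 CPM, adjusted p = 0.17), were not called.

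Genes of the dense-core granule, where endocrine cells store and process peptides, were mostly near 0. Of 22, 10 were tested and 1 was higher (median -0.11; 5.62% of all genes were higher): Rab27a, a GTPase of secretory and lysosome-related vesicles, at 13.6 ± 3.20 against 8.49 ± 1.61 CPM (SD, n = 5; edgeR adjusted p = 0.044). It lost the call in 8 of the 10 omissions of a single library, all but those of IL6 shRNA1 library 1 and control library 3 (adjusted p = 0.059 to 0.096), and with the leukocyte score (log2 fold change 0.17, adjusted p = 0.82). The granin genes that define neuroendocrine cells were low: Chga was at 0.939 against 0.574 CPM and Chgb had 3 and 4 counts per group. Snap25 and Sytl4 had 0 counts in all libraries. The most abundant gene of the list per length, Ccdc186, was at 72.2 against 87.7 CPM (adjusted p = 0.19). The summed level of 15 markers of neurons, glia and neuroendocrine cells, Snap25 among them, was 23.9 to 49.2 CPM against 18.8 to 27.2 CPM.

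The genes of other peptide hormone and neuropeptide precursors mostly lay under the filter on low counts. Of 61, 12 were tested, 2 were higher and 1 lower (median 0.04), where 5.62% of all tested genes were higher and 6.16% lower. In this list 8 genes had 0 counts in every library. Npy, the neuropeptide Y precursor gene, on chromosome 6 like Trh, was at 1.39, 6.17, 3.17, 5.55 and 1.91 CPM in IL6 shRNA1 libraries 1 to 5. It was at 11.3, 8.72, 11.9, 11.4 and 7.89 CPM in control libraries 1 to 5. The groups did not overlap (log2 fold change -1.49 ± 0.37 SE, edgeR adjusted p = 0.029), and control libraries 2 and 5, the highest for Trh, were the lowest controls for Npy. The call of Npy was lost without IL6 shRNA1 libraries 3 and 5 and control libraries 2, 3 and 4 (adjusted p = 0.051 to 0.069), with the leukocyte score (-1.89, adjusted p = 0.15) and without the 3 farthest libraries (-1.50, adjusted p = 0.12). Gal, the galanin precursor gene, was higher at 1.74 ± 0.579 against 0.754 ± 0.315 CPM (adjusted p = 0.047). That call was lost in 8 of the 10 single omissions, all but those of IL6 shRNA1 library 1 and control library 3 (adjusted p = 0.059 to 0.10), with the leukocyte score (log2 fold change 0.66, adjusted p = 0.63) and without the 3 farthest libraries (0.98, adjusted p = 0.21). Nucb2, which encodes nucleobindin 2, the source of nesfatin-1, was higher at 73.4 ± 4.83 against 55.4 ± 3.09 CPM (a difference of 0.40 ± 0.07 SE on the log2 scale, adjusted p = 0.005) and kept its call in every single omission. It lost it with the leukocyte score (log2 fold change 0.38, adjusted p = 0.12) and without the 3 farthest libraries (0.35, adjusted p = 0.089).

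The receptors of TRH and the thyroid hormone axis showed no called gene. Of 22, 9 were tested, 0 passed and the median was 0.41. Trhr, the receptor gene, had 57 counts in the IL6 shRNA1 libraries and 77 in control (0.594 ± 0.401 against 0.785 ± 0.588 CPM, edgeR adjusted p = 0.72), and Trhr2 had 3 and 11. Thra, the thyroid hormone receptor alpha gene, was at 43.1 ± 11.9 against 66.8 ± 12.9 CPM (adjusted p = 0.055), and Dio3, the deiodinase gene that inactivates thyroid hormone, at 2.97 ± 1.79 against 0.897 ± 0.844 CPM (adjusted p = 0.16). The most abundant gene of this list per length, Klf9, was at 67.8 against 81.4 CPM (adjusted p = 0.25). Of 13 regulators known at the Trh gene, all were tested, 0 were called, and 10 had negative fold changes (median -0.12). Stat3, the most abundant per length, was at 312 against 336 CPM (adjusted p = 0.43). At an unadjusted p under 0.05, 4 genes of the receptor list and 4 of the regulator list passed in edgeR. DESeq2 called 2 in each list and limma voom 1, and Thra is in both lists. Without IL6 shRNA1 library 1 edgeR called 1 receptor-list gene and 2 regulators, without control library 4 it called 1 in each, and without IL6 shRNA1 library 3 it called 1 regulator.

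**Figure D3:**
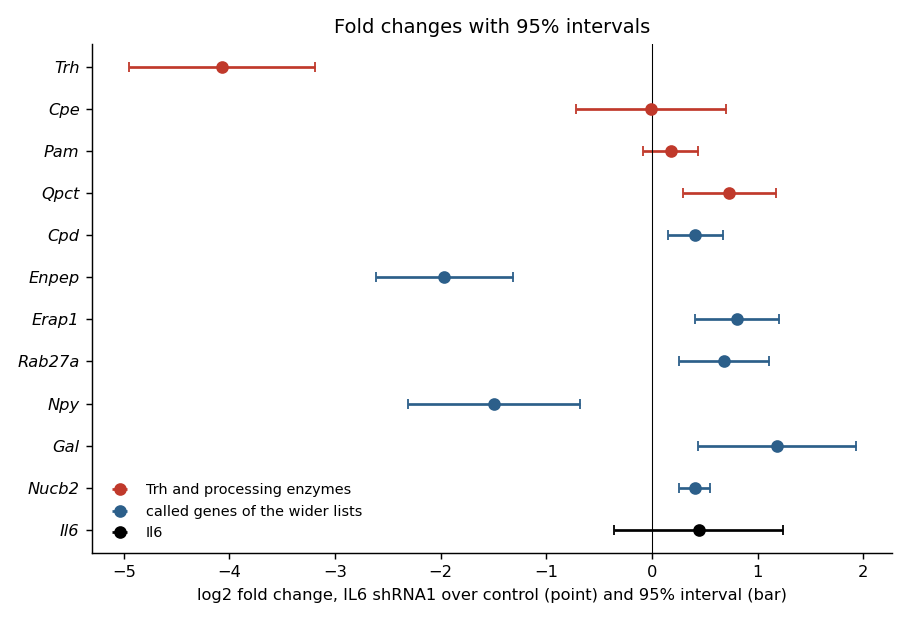
Log2 fold change of IL6 shRNA1 over control (horizontal axis) with its 95% interval, for Trh and the 3 tested enzymes in red, the called genes of the wider lists in blue and Il6 in black. The interval of Trh runs from -4.95 to -3.19, those of Cpe, Pam and Il6 include 0, and Enpep and Npy are the called genes of the lists on the lower side.

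Some of the genes around Trh on chromosome 6 were lower too, by far less. Of 43 other genes of the table that reach within 1 Mb of the Trh start with any of their bases, 16 were tested, 5 were lower and 0 higher (0 at an unadjusted p under 0.05 in edgeR), with a median log2 fold change of -0.30. Over chromosome 6 without Trh, 215 of 796 tested genes were lower (27.0%) and 21 higher, with a median of -0.23, the lowest of the 19 autosomes. Of 14267 tested genes on other chromosomes, 4.99% were lower and 5.79% higher, with a median of -0.01. Chromosome 6 was not alone in its shift. Chromosome 1 had a median of 0.32, with 268 of 917 tested genes higher and 1 lower, and chromosome 19 a median of -0.12. The nearest tested gene, Rbsn, an endosomal trafficking gene whose midpoint lies 43.8 kb from the Trh start, was at 54.2 against 79.0 CPM (log2 fold change -0.54, edgeR adjusted p = 0.017). Fgd5 (-0.63, adjusted p = 0.0066), Ccdc174 (-0.46, 0.019), Xpc (-0.30, 0.029) and Tmem43 (-0.29, 0.036) were the other 4 lower neighbours. Among the 16, the lowest fold change was that of Prickle2 at -0.81 (adjusted p = 0.057), against -4.07 for Trh.

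In each control library the median of chromosome 6, centred on each gene's mean, was above 0 (0.08 to 0.17), and in each IL6 shRNA1 library below 0 (-0.17 to -0.06), so the groups did not overlap for it either. The number of neighbours called changed with the libraries used: it was 8 without IL6 shRNA1 library 1, 2 without IL6 shRNA1 library 2 or control libraries 2 or 5, 3 without IL6 shRNA1 libraries 3 or 4, and 0 without the 3 farthest libraries or with the leukocyte score. The count of lower genes on chromosome 6 was 106 to 137 without IL6 shRNA1 libraries 2, 3, 4 or 5 or control libraries 2 or 5. It was 17 without the 3 farthest libraries and 1 with the leukocyte score. The median stayed between -0.24 and -0.15 over the 24 alternatives. The part of the chromosome-wide shift in the level of Trh was not tested.

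**Figure D4:**
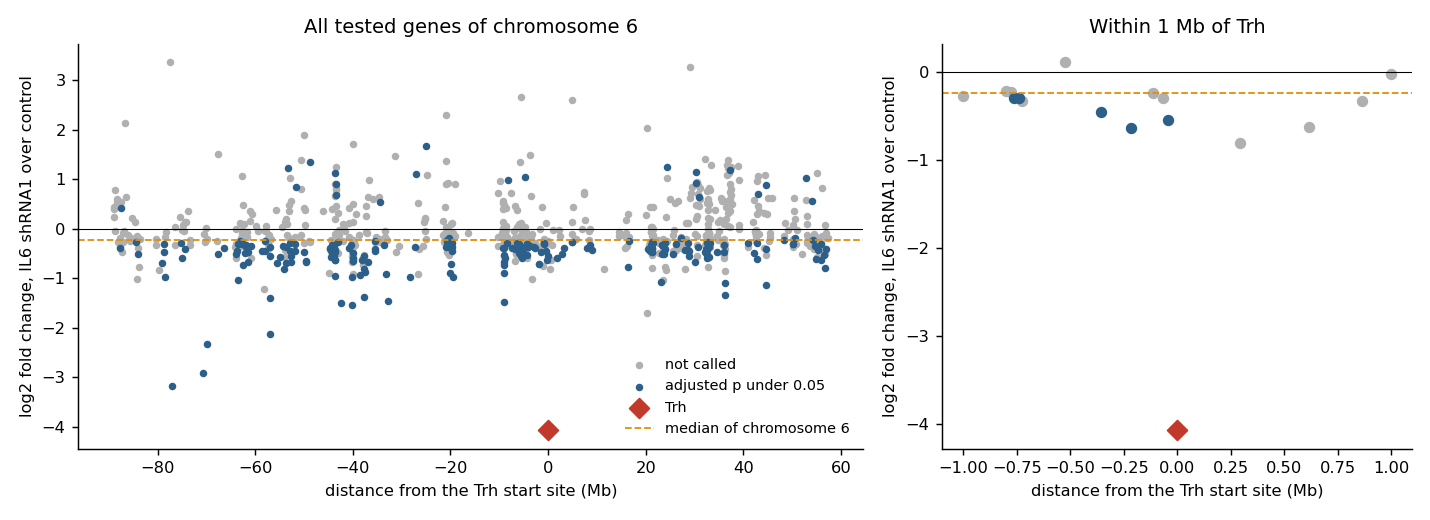
Log2 fold change of IL6 shRNA1 over control for the tested genes of chromosome 6 against their distance in Mb from the Trh start, over the chromosome (left) and within 1 Mb (right). Blue points are called genes and the dashed line is the chromosome's median of -0.23, and Trh, the red diamond, lies at -4.07, below all others.

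The genes with the profile nearest to that of Trh were sought among 10886 genes that averaged 5 CPM or more, by the root mean square difference in centred log2 CPM over the 10 libraries. Their fold changes follow from that choice and are given as a description. Slc26a7, an anion transporter gene, came first (difference 0.825, at 1.35 ± 1.43 against 22.6 ± 21.1 CPM; SD, n = 5). Then came the transcription factor gene Foxp2, also on chromosome 6 (0.862, 3.40 against 30.6 CPM), and the synaptic scaffold gene Dlg2 (0.893, 2.05 against 11.6 CPM). Phyhipl (0.929, 21.0 against 95 CPM) and the netrin receptor gene Unc5c (0.932, 6.32 against 34.1 CPM) were the last of the 5. The median difference over all genes compared was 2.12. In all 5, IL6 shRNA1 library 1 was the highest of its group and control library 5 the highest control, as for Trh, and in Foxp2 and Phyhipl the groups overlapped, which they did not in Trh.

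**Figure D5:**
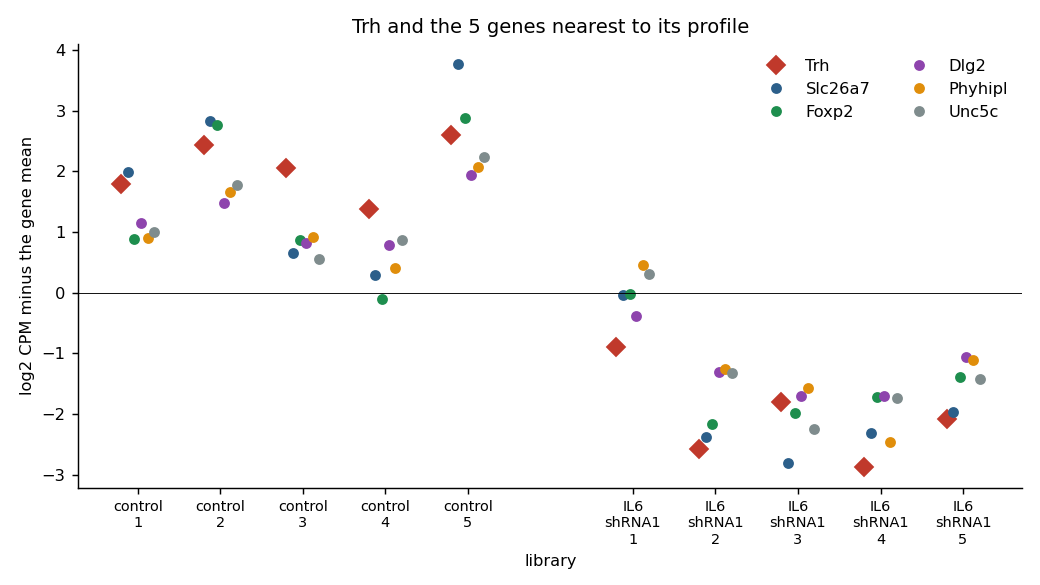
Log2 CPM minus each gene's mean (vertical axis) in the 5 control and 5 IL6 shRNA1 libraries for Trh (red diamonds) and the 5 genes nearest to its profile (circles). Trh lies at 1.38 to 2.60 in control and at -2.88 to -0.90 with IL6 shRNA1, where library 1 is the highest for all 6 genes.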

How the data were processed

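RNA sequencing libraries from 10 samples (5 labelled IL6 shRNA1, 5 control) were analysed. Per the submitters' processing notes STAR 2.7.0f, featureCounts (Subread 1.6.4), Trim Galore 0.6.6, FastQC 0.11.9, R 4.0.4 and SAMtools 1.11 were used, and mm10 and GRCm38 are the builds listed. Strand setting and annotation release were not given in these sources. The deposited count table of the authors holds raw counts per gene, and the deposited FPKM table the same genes scaled by gene length and by the column's total.

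Counts were fitted in R 4.3.3 with edgeR 4.0.16 (filterByExpr with minimum count 10, TMM factors, robust quasi-likelihood fit on group alone) over 15064 genes, with Benjamini-Hochberg adjustment over all of them and calls at an adjusted p under 0.05. The fit was tested on simulated data. Genes under the filter had their mean CPM compared over all 252 regroupings of the libraries (exact permutation test, two-sided). Members and lists were chosen with earlier results of these data known. The genes named were all 7 members, Il6, up to 4 called genes and the most abundant per length of each list, called neighbours within 1 Mb, and the 5 nearest profiles. Named beyond this rule, with their values already seen, were Furin, Pcsk1n, Scg5, Qpctl, Prep, Pgpep1, Chga, Chgb, Trhr, Trhr2, Thra, Dio3, Prickle2, Upk3b, Krt8, Wt1, Lum, Dcn, Myh11, Epcam, Pax8 and the NPY receptor genes. Col1a2 was named beyond it as well. Alternatives were other scalings and filters, DESeq2 1.42.0, limma 3.58.1 (voom, and FPKM with pseudocounts 1 and 0.1), the title number as a block, an adjusted p under 0.01, a leukocyte score as covariate, and omitted libraries.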

Additional observations from a re-analysis of the deposited data

Results flagged for a closer look

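Within the groups of 5, 52 groups from 26 genes were checked for a library far from the rest, and 7 stood out. Chance alone is taken to flag about 1 in 20, a set rate that was not worked out from these data. That rate need not hold near 0 counts or for genes picked by their profile, so it was not set against the 7 flags. Of these, 5 were IL6 shRNA1 library 1, each time above its group: Trhde at 0.267 CPM (others 0 to 0.0529), Slc26a7 at 3.90 CPM (others 0.491 to 0.953), Foxp2 at 7.91 CPM (others 1.73 to 3.02), Phyhipl at 52.2 CPM (others 6.81 to 17.6) and Unc5c at 15.7 CPM (others 2.57 to 4.99). The last 4 were picked for their likeness to Trh, so they are not independent of each other. IL6 shRNA1 library 5 stood out for Pcsk2 at 0.159 CPM, which rests on 3 counts against 0 in the others, and for Erap1 at 113 CPM (others 79.1 to 86.1).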

How the results depend on the processing

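The log2 fold change of Trh lay between -4.48 and -3.27 in all 24 alternatives. The number of genes called, 1775, was 3027 with DESeq2, 755 with the replicate block, 381 at an adjusted p under 0.01, 212 without the 3 farthest libraries, 75 with the leukocyte score, and 864 to 2774 in the single omissions. Qpct kept its direction and lost its call with library totals (0.73, adjusted p = 0.06), without an expression filter (0.75, adjusted p = 0.055), with the replicate block (0.72, adjusted p = 0.089), at an adjusted p under 0.01 (0.73), with FPKM and a pseudocount of 0.1 (0.69, adjusted p = 0.052), without the 3 farthest libraries (0.53) and with the leukocyte score (0.45). Its single omissions gave 0.62 to 0.84. Cpe, at -0.01 and not called in any alternative, turned positive with RLE (0.0117), upper-quartile (0.0024) and library-total scaling (0.0221), without a filter (0.0163), with the 1 CPM filter (0.0120), DESeq2 (0.0099), limma voom (0.12), the replicate block (0.0956), FPKM with pseudocounts 1 (0.0928) and 0.1 (0.10), without the 3 farthest libraries (0.49) and with the leukocyte score (0.41), and its single omissions gave -0.14 to 0.32. Of these, 0.07 was without IL6 shRNA1 library 2, 0.10 without IL6 shRNA1 library 3 or control library 2, and 0.32 without control library 5. Il6 turned to -0.50 with the leukocyte score. The difference in mean Pcsk1 CPM was 0.104 to 0.329 in the single omissions. Genes called lower on chromosome 6 numbered 139 without a filter, 93 with the replicate block and 49 at an adjusted p under 0.01, and called neighbours of Trh 3, 2 and 1. The causes were not tested. Pam kept its direction and was not called in any of its 24 alternatives.

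The numbers in the titles did not pair the samples: same-numbered libraries correlated at -0.28 to 0.27 in their deviations, and 1 of 5 IL6 shRNA1 libraries matched its own number best. Besides Qpct, Cpd, Rab27a, Npy and Gal lost their call under the replicate block (adjusted p = 0.069, 0.098, 0.05 and 0.065). Pcsk1, Pcsk2 and Trhde rest on too few counts for the model fits, so only the scaling and the omissions were run, and Pcsk2 has no value without IL6 shRNA1 library 5.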

Other observations

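The gene of a neuropeptide Y receptor was lower in the IL6 shRNA1 libraries, as was Npy, whose own call was lost in 5 of the 10 single omissions. Npy1r, chosen after its values were seen, was at 1.76, 2.37, 1.86, 1.61 and 1.64 CPM in IL6 shRNA1 libraries 1 to 5 and at 4.20, 9.93, 5.15, 5.38 and 9.08 CPM in control libraries 1 to 5. Within the controls, libraries 2 and 5 were the highest for Npy1r and the lowest for Npy. The groups did not overlap, and the log2 fold change was -1.86 ± 0.26 (SE; edgeR quasi-likelihood test, adjusted p = 0.0027). The call was kept in each omission of a single library and lost with the leukocyte score in the model (-1.26, adjusted p = 0.09). The other receptor genes tested, Npy2r (1.29 against 1.07 CPM, adjusted p = 0.78) and Npy4r (1.03 against 1.06 CPM, adjusted p = 0.96), were not called.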
